A study of Mus musculus with 12 samples.

Results

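The nuclear genes for subunits of the mitochondrial respiratory chain and ATP synthase were followed in liver RNA of 12 female C57BL/6 mice aged 3 months. They were taken by symbol, as every gene named Nduf followed by a, b, c, s or v and a number, Sdha to Sdhd, Uqcr, Cox4 to Cox8 or Atp5. Of the 13097 genes in the deposited count table, 78 carried such a name, and all 78 passed the filter on low counts. By name 36 belonged to complex I, 4 to complex II, 8 to complex III, 13 to complex IV and 17 to complex V. The subunits encoded by mitochondrial DNA were not analysed here.

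The mice formed 4 groups of 3, with 1 liver library per mouse. Labelled KO ethanol-fed mice carried a liver-specific Sirt6 knockout by their labels and received a Lieber-DeCarli liquid diet with 5% ethanol over 10 days, followed by an ethanol binge of 5 g/kg. WT ethanol-fed mice had the same feeding and binge without the knockout label. Labelled KO pair-fed and WT pair-fed mice received an isocaloric control diet over the same 10 days and a binge of maltose dextrin. What drives the deletion in liver, and which part of Sirt6 it removes, was not stated in the sources at hand.

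The respiratory chain passes electrons from NADH, through complex I, and from succinate, through complex II, by way of ubiquinone to complex III and on to complex IV, which reduces oxygen. Complexes I, III and IV pump protons across the inner mitochondrial membrane, and ATP synthase, counted as complex V, uses the gradient to make ATP. Hepatocytes are rich in mitochondria, and oxidation of ethanol and acetaldehyde in liver yields NADH that this chain has to reoxidise.

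Libraries held 17305141 to 18279809 counts each. Values are given as CPM, counts scaled to a common library size after normalisation for library composition. Sirt6, which encodes a chromatin deacylase, had 53, 58 and 62 counts in labelled KO ethanol-fed livers, 67, 54 and 60 in WT ethanol-fed livers, 52, 46 and 47 in labelled KO pair-fed livers, and 51, 49 and 68 in WT pair-fed livers. The groups overlapped at both feedings, and Sirt6 differed by a log2 fold change of -0.23 ± 0.21 (SE) for labelled KO over WT in pair-fed mice (adjusted p = 0.914, edgeR) and by 0.01 ± 0.21 in ethanol-fed mice (adjusted p = 0.985, edgeR). The counts cover the whole gene and cannot check a deletion of part of it. The mice are therefore called labelled KO throughout, and directions between them and WT mice rest on the labels. Alb, the main secreted protein of hepatocytes, took 6.10% to 9.55% of counts in the 6 ethanol-fed livers and 11.0% to 12.7% in the 6 pair-fed livers. Labelled KO ethanol-fed mouse 3 stood apart from its group in the subunit genes. Counts of falls with ethanol and medians over all members are therefore given with and without it. Other values, such as tests of single genes, include it.

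Some of the 78 names call for care. Ndufa4 is now placed in complex IV, although its name puts it among the 36 of complex I. Cox6b2, the testis form of subunit 6B, Cox7a1, the heart and muscle form of subunit 7A, and Ndufa4l2, a paralogue of Ndufa4 induced by hypoxia, are isoforms restricted to other tissues or states. Cox7a2l helps to join complexes into supercomplexes, Atp5s is a coupling factor, and Atp5sl, since renamed Dmac2, takes part in building the membrane arm of complex I in human cells. The remaining 72 names, Ndufa4 among them, are common subunits.

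Levels are given per kilobase of exonic length, as listed with the counts. On this scale the 72 common subunits ranged from 0.789 to 816 CPM with a median of 123 CPM. For some genes that length differs from a single transcript, as in Ndufa11 with 2661 against 545 bases, so ranks between genes are approximate. The highest were Atp5b, the catalytic beta subunit of ATP synthase, at 816 CPM per kilobase, Atp5g3, a gene for the proton-carrying ring, at 524, and Cox6a1, the non-muscle form of subunit 6A, at 510. Cox4i1, the common form of subunit 4, stood at 474 and Uqcrq, a small subunit of complex III, at 473. Cox7a1, Cox6b2 and Ndufa4l2 were at 1.73, 2.77 and 1.41 CPM per kilobase.

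Low levels of some common subunits went with sequence that other genes share. In 5 of them at least 50% of the 50-base windows of the transcript also occur in transcripts of other genes, pseudogenes included, and these 5 had a median of 22.2 CPM per kilobase, against 130 in the other 67. Atp5g2, a further gene for the same ring protein, had 87.4% shared windows and 0.789 CPM per kilobase, and Atp5l, a membrane subunit of ATP synthase, had 84.8% and 4.49. The other 3 were Ndufa12, Cox7c and Atp5h. Across the 72 subunits the shared share and the log2 level had a Spearman correlation of -0.41, and the shared share and the log2 change with ethanol in WT mice one of 0.08. The treatment of reads that match several genes is not given, so levels of these genes are uncertain.

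**Figure D1:**
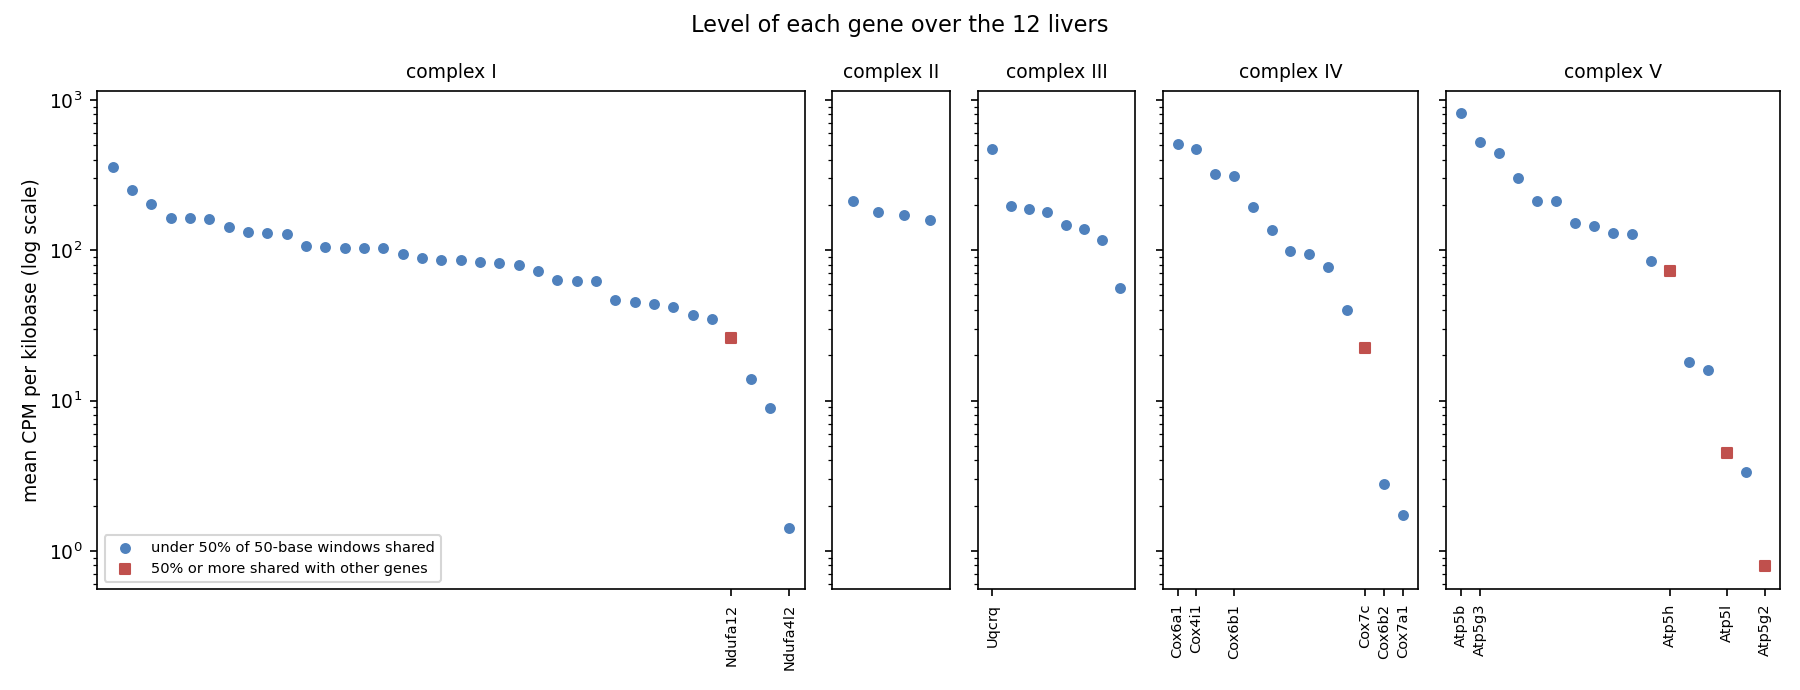
Mean level of each of the 78 genes over the 12 livers, in CPM per kilobase of exonic length on a log axis. Genes are ordered by level within each complex as named, with names given for genes the text describes by level. Red squares mark genes with at least 50% of their 50-base windows shared with other genes; they lie between 0.789 and 72.7 CPM per kilobase, and the tissue-restricted Cox7a1, Cox6b2 and Ndufa4l2 lie at the low end of their complexes.

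Promoters of these genes are described for the factors known to drive them. Nuclear respiratory factor 1, the ETS factor GABP (also called nuclear respiratory factor 2), YY1 and SP1 are all known to bind promoters of respiratory genes. In the RefSeq promoter windows (GRCm38.p6, 250 bases before to 50 after the start of the gene), 66 of the 78 genes had an entry. The NRF1 core GCGCATGC, on either strand, was present in 15.2% of these 66, against 3.05% of all 27025 genes with an entry and 5.80% of the 10021 genes of the count table that matched. The ETS core CCGGAAG was present in 24.2%, against 9.93% of all and 19.1% of the table's genes. The YY1 core AAGATGG was present in 18.2%, against 7.28% and 8.18%, and the SP1 core GGGCGG in 40.9%, against 38.2% and 67.0%. A match is a description of the letters and not a bound site.

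Stretches ending 25 bases past the start are printed for 6 genes that the results below turn on or that carry several cores, chosen with their values known; capitals mark these cores on either strand, all sequences run 5′ to 3′ on the gene's strand, and positions count from the start of the gene.
Ndufa6, chr15:82354267-82354386, minus strand: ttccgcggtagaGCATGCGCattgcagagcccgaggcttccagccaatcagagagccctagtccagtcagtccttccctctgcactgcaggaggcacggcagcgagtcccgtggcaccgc
Sdhd, chr9:50603825-50603944, minus strand: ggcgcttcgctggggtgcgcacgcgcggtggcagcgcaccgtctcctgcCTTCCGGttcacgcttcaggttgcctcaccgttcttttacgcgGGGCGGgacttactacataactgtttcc
Uqcrfs1, chr13:30545292-30545411, minus strand: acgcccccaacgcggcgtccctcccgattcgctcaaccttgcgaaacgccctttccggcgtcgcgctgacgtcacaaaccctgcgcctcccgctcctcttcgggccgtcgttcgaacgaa
Cox8a, chr19:7217592-7217711, minus strand: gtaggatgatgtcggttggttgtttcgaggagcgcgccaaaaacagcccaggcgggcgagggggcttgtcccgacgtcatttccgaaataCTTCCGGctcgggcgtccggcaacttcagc
Cox6a1, chr5:115348934-115349133, minus strand: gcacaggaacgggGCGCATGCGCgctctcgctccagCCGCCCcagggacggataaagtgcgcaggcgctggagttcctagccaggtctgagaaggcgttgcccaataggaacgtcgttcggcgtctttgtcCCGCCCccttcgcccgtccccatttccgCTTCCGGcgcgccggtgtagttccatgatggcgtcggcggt
Cox6b2, chr7:4753070-4753189, minus strand: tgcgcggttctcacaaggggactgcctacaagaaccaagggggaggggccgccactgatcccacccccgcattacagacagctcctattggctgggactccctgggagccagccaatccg
The NRF1 core of Ndufa6 began 83 bases before the start. Sdhd had an ETS core beginning 46 bases and an SP1 core beginning 3 bases before it, and Cox8a an ETS core beginning 5 bases before it. In Cox6a1 the capitals GCGCATGCGC hold the NRF1 core on both strands, overlapping, with 2 SP1 cores and an ETS core between them and the start. The printed stretches of Uqcrfs1 and Cox6b2 hold none of the 4 cores.

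Ethanol feeding in WT mice went with lower RNA of subunits of all 5 complexes. Of the 78 genes, 28 fell and 0 rose (edgeR quasi-likelihood test, adjusted p under 0.05 over all genes), beside 14.5% of all genes that fell and 18.9% that rose. At an unadjusted p under 0.05 the members counted 44 lower and 0 higher, beside 19.3% of all genes lower and 24.5% higher, and DESeq2 and limma-voom also called 0 higher. The median member stood at 77.6% of its pair-fed level, a log2 fold change of -0.37 (range -1.33 to 0.07), while the median over all genes was 0.03. The estimate was negative for 76 of 78, Cox7a2l and Atp5s being the exceptions at 0.07 ± 0.14 and 0.03 ± 0.21 (SE). In 57 genes all 3 ethanol-fed livers lay below all 3 pair-fed livers, beside 22.3% of all genes. Among all genes of at least 10 CPM the share that fell was 17.8%.

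In individual livers the shift was shared across members. Relative to the WT pair-fed mean, the median member was shifted on the log2 scale by -0.40, -0.20 and -0.52 in the 3 WT ethanol-fed livers and by -0.08, 0.06 and 0.03 in the 3 WT pair-fed livers. Labelled KO ethanol-fed livers stood at -0.36, -0.43 and 0.08, and labelled KO pair-fed livers at 0.05, 0.02 and 0.01. The 5 ethanol-fed livers other than labelled KO mouse 3 thus lay below all 6 pair-fed livers. In that mouse 26 of 78 genes lay under the WT pair-fed mean, against 68 to 77 in the other 5 ethanol-fed livers. Pair-fed livers ranged from 16 to 68, WT pair-fed mouse 1 having the 68, so this count alone does not separate the feedings. In labelled KO ethanol-fed mouse 3 the medians by complex ran from -0.02 in complex II to 0.14 in complex IV.

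**Figure D2:**
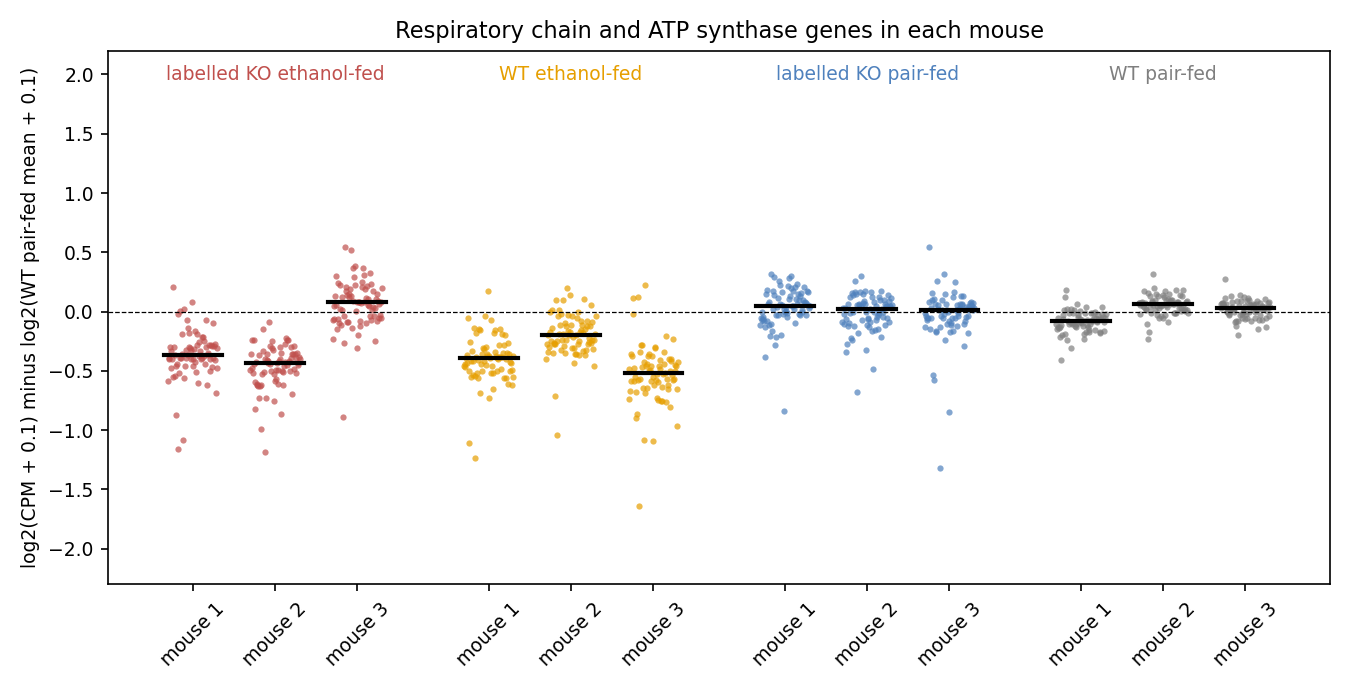
Each point is 1 gene in 1 mouse, as log2(CPM + 0.1) minus the same for the mean of the 3 WT pair-fed livers, with the median as a black line; Cox6b2 is left out for scale, so 77 genes are drawn. Medians lie at -0.20 or lower in 5 of 6 ethanol-fed livers, while labelled KO ethanol-fed mouse 3 has its median at 0.08, above the pair-fed livers.

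As a share of all counts, the 78 genes made up 1.05%, 0.961% and 1.13% in labelled KO ethanol-fed livers, 1.01%, 1.02% and 0.929% in WT ethanol-fed livers, 1.19%, 1.20% and 1.16% in labelled KO pair-fed livers and 1.11%, 1.21% and 1.19% in WT pair-fed livers. On this plain share the ethanol-fed and pair-fed livers did not overlap within either label. Labelled KO ethanol-fed mouse 3, at 1.13%, lay below all labelled KO pair-fed livers, though above WT pair-fed mouse 1 at 1.11%. The sum of 4 hepatocyte markers, Alb, Apoa1, Ttr and Serpina1a, most of it Alb, moved in the same direction. It was 63528 to 120754 CPM in labelled KO ethanol-fed and 67279 to 98184 in WT ethanol-fed livers. Pair-fed livers had 128700 to 148921 CPM in labelled KO and 136749 to 139253 in WT mice. Of the 4, 2 fell with ethanol in WT mice, beside 14.5% of all genes, and 0 in labelled KO mice, beside 10.9%. Fewer hepatocytes and less RNA per hepatocyte cannot be told apart in whole liver, and the part of the markers' change in these results was not tested.

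Complex I, which takes electrons from NADH, had 13 of its 36 named genes lower in WT ethanol-fed mice, with a median log2 fold change of -0.32. Of the 8 subunits around the ubiquinone-reducing arm 6 fell (median -0.45), and of the 10 at the far end of the membrane arm 5 fell (median -0.43). Of the 8 in the NADH-oxidising arm 1 fell (median -0.26), and of the 8 in the membrane arm near the ubiquinone site 1 fell (median -0.30). These counts are to be read beside the 14.5% of all genes that fell in WT mice, and 17.8% of genes of at least 10 CPM. The difference between arms was not tested.

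Ndufa6, an accessory subunit beside the ubiquinone site whose promoter is printed above, had 80.9, 108 and 87.0 CPM in WT ethanol-fed livers, against 125, 146 and 132 CPM in WT pair-fed livers. The groups did not overlap, and Ndufa6 fell to 68.6% (log2 fold change -0.54 ± 0.14 SE, adjusted p = 0.0105, edgeR). Ndufs3, a core subunit of the same arm, had 47.3, 52.7 and 39.2 CPM in WT ethanol-fed livers and 65.7, 65.9 and 67.5 CPM in WT pair-fed livers, and fell to 69.9% (adjusted p = 0.0134, edgeR). With 39.7% of its 50-base windows shared with other genes, its level is less certain than that of Ndufa6, which shares 0%. Ndufs7 and Ndufs8, which carry iron-sulfur clusters, and the accessory subunit Ndufa9 fell by 0.44 to 0.51 on the log2 scale.

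At the far end of the membrane arm Ndufb8 and Ndufb11, both accessory subunits, fell by 0.53 and 0.47 on the log2 scale. Ndufb11 had 84.7, 94.5 and 84.0 CPM in WT ethanol-fed livers and 120, 124 and 121 CPM in WT pair-fed livers, with a narrow spread in both. Its exons overlap those of Rbm10 on the opposite strand by 62 bases, and the strand setting of the counting is not given, so reads of the 2 genes cannot be told apart there. Ndufb2, Ndufb5 and Ndufb10 also fell. In the NADH-oxidising arm, Ndufv1, which carries the flavin that accepts electrons from NADH, had 186, 208 and 171 CPM in WT ethanol-fed livers, against 212, 236 and 231 CPM in WT pair-fed livers. All 3 ethanol-fed values were lower, yet the difference did not pass (log2 fold change -0.27 ± 0.13, adjusted p = 0.131, edgeR), and neither did that of the iron-sulfur subunit Ndufs1 (-0.23 ± 0.14, adjusted p = 0.227, edgeR). Exons of Ndufs1 overlap those of Ino80dos on the opposite strand by 1984 bases, so its value is uncertain. Ndufv3 was the member of this arm that fell, and Ndufa10 the member of the near membrane arm.

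Complex II, succinate dehydrogenase, has 4 subunits, all made in the nucleus, and also serves the tricarboxylic acid cycle. Sdha, its flavoprotein, had 507, 561 and 502 CPM in WT ethanol-fed livers and 659, 674 and 682 CPM in WT pair-fed livers, and fell to 78.0% (log2 fold change -0.36 ± 0.11, adjusted p = 0.0230, edgeR). Sdhd, a membrane anchor, had 149, 189 and 152 CPM in WT ethanol-fed livers, against 202, 236 and 244 CPM in WT pair-fed livers, and fell to 72.0% (adjusted p = 0.0256, edgeR). Neither gene's groups overlapped. The iron-sulfur subunit Sdhb and the other anchor, Sdhc, had estimates of -0.32 ± 0.13 and -0.30 ± 0.15 that did not pass (adjusted p = 0.0794 and 0.141, edgeR).

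Complex III had 3 of 8 genes lower, beside 14.5% of all genes, with a median of -0.40. Uqcrfs1, the Rieske iron-sulfur protein that draws electrons from ubiquinol, had 144, 161 and 113 CPM in WT ethanol-fed livers and 208, 223 and 234 CPM in WT pair-fed livers. It averaged 139 ± 24.3 CPM in WT ethanol-fed and 221 ± 13.2 CPM in WT pair-fed livers (SD, n = 3 each), and fell to 62.9% (log2 fold change -0.67 ± 0.17 SE, adjusted p = 0.00845, edgeR). That was the steepest fall among the common subunits other than Atp5l, whose sequence is mostly shared. The core proteins Uqcrc1 and Uqcrc2 fell to 74.9% and 76.0%.

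Complex IV, cytochrome c oxidase, had 3 of 13 named genes lower, Cox4i1, Cox6c and Cox8a, with a median of -0.40. That count is to be read beside 14.5% of all genes and 17.8% of those of at least 10 CPM. Cox8a, the form of subunit 8 found in most tissues, had 138, 153 and 125 CPM in WT ethanol-fed livers, against 182, 201 and 202 CPM in WT pair-fed livers, and fell to 71.1% (adjusted p = 0.0229, edgeR). Cox4i1 fell to 73.4% and Cox6c to 70.6%. Cox6a1, with several promoter cores, had 203, 255 and 238 CPM in WT ethanol-fed livers and 269, 306 and 295 CPM in WT pair-fed livers, which did not overlap but did not pass (log2 fold change -0.32 ± 0.16, adjusted p = 0.136, edgeR). Cox5b, a zinc-binding subunit on the matrix side of the enzyme, had an estimate of -0.15 ± 0.16.

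ATP synthase had 7 of 17 named genes lower, beside 14.5% of all genes, with a median of -0.42. Of the catalytic head, Atp5a1 (alpha) had 935, 974 and 770 CPM in WT ethanol-fed livers, against 1189, 1348 and 1308 CPM in WT pair-fed livers, and fell to 69.6% (log2 fold change -0.52 ± 0.14, adjusted p = 0.0106, edgeR). Atp5b (beta) had 1262, 1413 and 1224 CPM in WT ethanol-fed livers and 1549, 1795 and 1792 CPM in WT pair-fed livers, and fell to 75.9% (adjusted p = 0.0329, edgeR). Atp5c1, the rotating shaft, fell to 71.2%, and Atp5j, Atp5j2 and Atp5l fell as well, Atp5j sharing exon bases with Gabpa on the opposite strand. The genes of the proton-carrying ring did not pass: Atp5g1, Atp5g2 and Atp5g3 had estimates of -0.03 ± 0.18, -0.39 ± 0.49 and -0.36 ± 0.16, the ring gene with most reads being Atp5g3.

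The steepest called fall belonged to a gene that is no subunit by current naming. Atp5sl had 24.6, 28.2 and 18.6 CPM in WT ethanol-fed livers and 59.1, 51.7 and 63.7 CPM in WT pair-fed livers, so every ethanol-fed liver lay far below the lowest pair-fed liver. It fell to 40.9% (log2 fold change -1.29 ± 0.16, adjusted p = 1.52e-04, edgeR). In labelled KO mice it had 26.0, 29.2 and 31.3 CPM when ethanol-fed, against 72.7, 64.3 and 60.9 CPM when pair-fed, and fell to 43.7% (-1.19 ± 0.16, adjusted p = 4.52e-04, edgeR). None of its 50-base windows is shared with another gene. Every ethanol-fed liver lay below every pair-fed liver of either label, labelled KO mouse 3 included.

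The count in WT mice depends on single livers and on scaling. It was 6 without WT ethanol-fed mouse 3 or without WT pair-fed mouse 2, where 10.3% and 10.1% of all genes fell, and 8 without WT pair-fed mouse 3, where 9.86% did, so the members' share was then near or below that of all genes. It was 16 without WT ethanol-fed mouse 1 and 46 without labelled KO ethanol-fed mouse 3, beside 16.2% and 15.8% of all genes. Medians lay between -0.48 and -0.30 over these and the other leave-outs. Scaled by total counts alone the count was 12, beside 8.57% of all genes, where the median of all genes moved to 0.18 and the median member lay 0.40 under it. Ndufa6, Ndufs3, Uqcrfs1, Atp5a1 and Atp5sl fell under all 20 alternative settings tried.

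**Figure D3:**
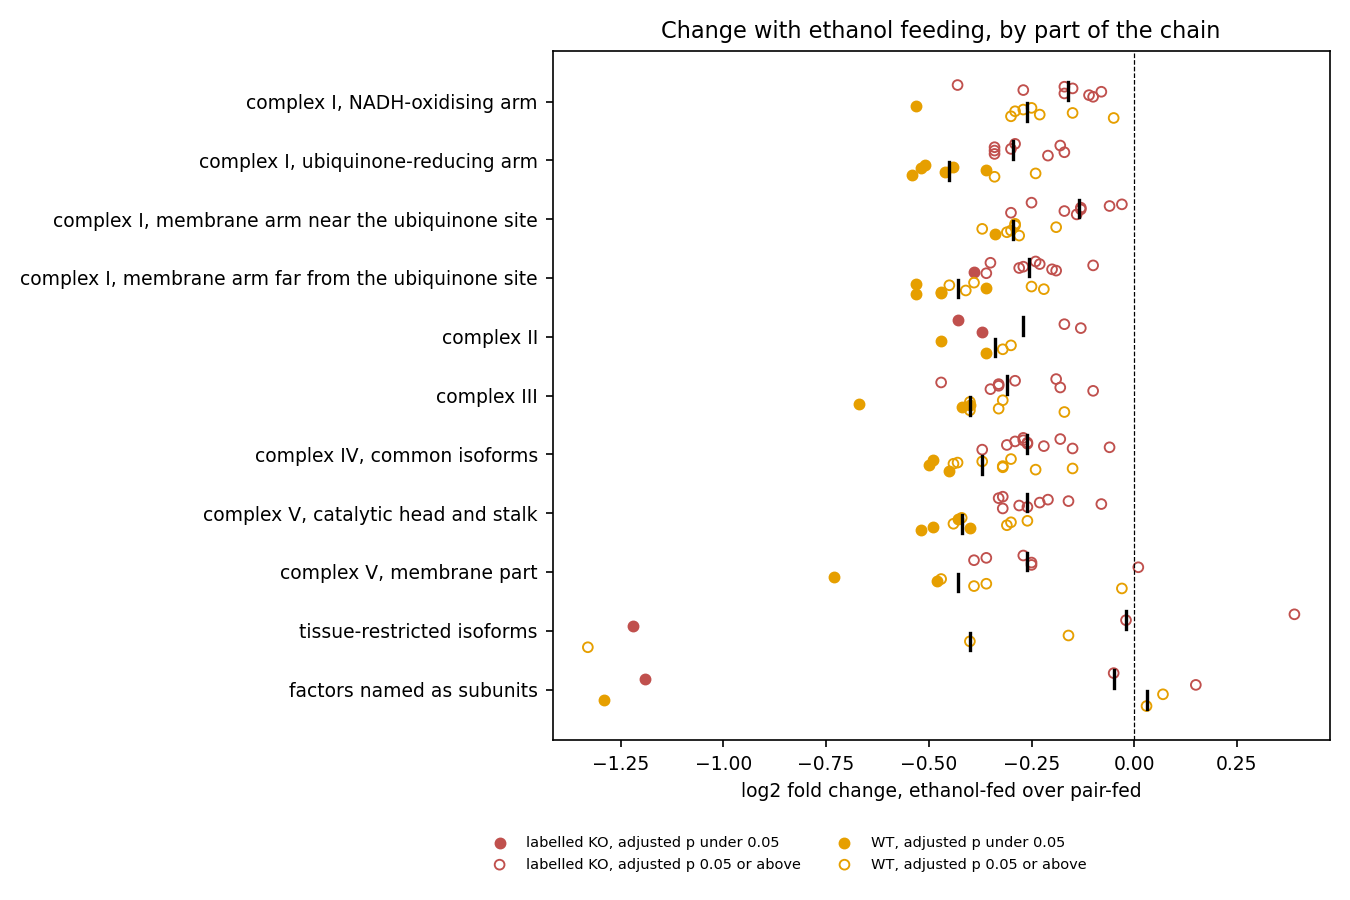
Log2 fold change of each of the 78 genes for ethanol-fed over pair-fed, by part of the chain, in labelled KO mice (red, upper of each pair) and WT mice (orange, lower); filled points have an adjusted p under 0.05 and black bars are medians. In every part made of common subunits the median is negative for both labels, and the called falls below -1 are Atp5sl and, in labelled KO mice, Cox6b2.

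In labelled KO mice ethanol feeding went with fewer calls. Of the 78 genes 5 fell and 0 rose (edgeR), beside 10.9% of all genes that fell and 13.7% that rose, and 12.5% that fell among genes of at least 10 CPM, so the members' share was below the background. At an unadjusted p under 0.05 there were 21 lower and 0 higher, beside 17.1% of all genes lower and 20.6% higher, and 0 rose by DESeq2 or limma-voom. The median member stood at 84.2% of its pair-fed level (log2 fold change -0.25), against an all-gene median of 0.04, and 75 of 78 estimates were negative. All 3 ethanol-fed livers lay below all 3 pair-fed livers for 19 genes, beside 20.4% of all genes. Without labelled KO ethanol-fed mouse 3 the count was 40 and the median -0.42, beside 9.29% of all genes. The count was 2 without any other labelled KO mouse, beside 6.25% to 9.20%, and 3 without any WT pair-fed mouse, beside 9.47% to 9.62%.

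The 5 were Atp5sl, Cox6b2, Ndufb11, Sdha and Sdhd. Sdha had 507, 525 and 565 CPM in labelled KO ethanol-fed livers and 678, 701 and 681 CPM in labelled KO pair-fed livers, and fell to 77.5% (log2 fold change -0.37 ± 0.11, adjusted p = 0.0267, edgeR). Mouse 3 lay below every pair-fed liver here, unlike its median member. Sdhd had 164, 162 and 215 CPM in labelled KO ethanol-fed livers, against 262, 235 and 234 CPM in labelled KO pair-fed livers, and fell to 74.0% (adjusted p = 0.0476, edgeR). Ndufb11 had 99.7, 90.7 and 127 CPM in labelled KO ethanol-fed livers and 147, 136 and 132 CPM in labelled KO pair-fed livers, and fell to 76.4% (adjusted p = 0.0450, edgeR). Of the 28 that fell in WT mice and the 5 in labelled KO mice, 4 were shared: Atp5sl, Ndufb11, Sdha and Sdhd.

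Several members that fell in WT mice had negative estimates in labelled KO mice that did not pass. Uqcrfs1 had 137, 162 and 213 CPM in labelled KO ethanol-fed livers and 248, 227 and 232 CPM in labelled KO pair-fed livers, without overlap, and did not pass (log2 fold change -0.47 ± 0.17, adjusted p = 0.0574, edgeR). Cox8a had 149, 146 and 214 CPM in labelled KO ethanol-fed livers, against 191, 201 and 188 CPM in labelled KO pair-fed livers, where mouse 3 exceeded all pair-fed values (-0.18 ± 0.15, adjusted p = 0.393, edgeR). Atp5a1 had 855, 910 and 1091 CPM in labelled KO ethanol-fed livers and 1187, 1204 and 1169 CPM in labelled KO pair-fed livers (-0.32 ± 0.14, adjusted p = 0.106, edgeR). Medians by complex were -0.21, -0.27, -0.31, -0.26 and -0.26 from I to V. Markers of Kupffer cells, the resident macrophages of liver, also moved in these mice: 9 of 10 fell with ethanol, with sums of 243 to 324 CPM in labelled KO ethanol-fed and 520 to 669 CPM in labelled KO pair-fed livers. Of B cell markers 2 of 3 fell and of T and NK cell markers 1 of 4, with sums of 0.711 to 1.81 and 1.12 to 1.68 CPM in labelled KO ethanol-fed livers, against 3.88 to 4.74 and 2.31 to 3.26 CPM in labelled KO pair-fed livers. Stellate cell markers rose in 2 of 4 and endothelial markers in 2 of 5, with sums of 317 to 446 and 213 to 234 CPM in labelled KO ethanol-fed livers, against 287 to 384 and 176 to 249 CPM in labelled KO pair-fed livers. Of all genes, 10.9% fell and 13.7% rose in labelled KO mice. In WT mice 0 of 10 Kupffer cell, 0 of 3 B cell and 1 of 4 T and NK cell markers fell. Stellate cell markers rose there in 1 of 4 and endothelial markers in 2 of 5. Of all genes, 14.5% fell and 18.9% rose in WT mice. For 0 of these markers did the ethanol response differ by label (edgeR, adjusted p under 0.05), beside 0.00764% of all genes. With so few calls anywhere, that count does not show that the markers responded alike in both labels. The part of these markers in the result was not tested.

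Whether the ethanol response differed by label was tested directly. For 0 of the 78 genes did the interaction of label and feeding pass (edgeR; 0.00764% of all genes did), 0 had an unadjusted p under 0.05, and DESeq2 and limma-voom called 0. The ethanol estimate was higher in labelled KO than in WT mice for 74 of 78, with a median difference of 0.12 on the log2 scale. Without labelled KO ethanol-fed mouse 3 that median was -0.05. The smallest p belonged to Cox8a, with a difference of 0.31 ± 0.21 (adjusted p = 0.948, edgeR). Standard errors of this size leave room for differences of either sign.

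Between labels at the same feeding, a single member differed. Of the 78 genes 1 rose and 0 fell in labelled KO over WT pair-fed mice, beside 0.702% of all genes that rose and 0.168% that fell, and 1 rose and 0 fell in ethanol-fed mice, beside 0.756% and 0.374%. Both times it was Cox6b2, which passed the low-count filter only through the labelled KO livers, where it is high. DESeq2 and limma-voom, run on the same counts, also called 1 higher and 0 lower at each feeding, which is no independent support. At an unadjusted p under 0.05 there were 1 higher and 0 lower in pair-fed mice, beside 4.48% and 3.99% of all genes. In ethanol-fed mice there were 4 higher and 0 lower, beside 7.03% and 7.70%, so the members' share was below that of all genes in both directions. The median member differed by 0.02 in pair-fed and by 0.15 in ethanol-fed mice, the second being -0.03 without labelled KO ethanol-fed mouse 3.

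Cox6b2 encodes the form of cytochrome c oxidase subunit 6B that is otherwise typical of testis. It had raw counts of 23, 40 and 38 in labelled KO ethanol-fed livers and 2, 3 and 3 in WT ethanol-fed livers, and of 79, 63 and 89 in labelled KO pair-fed livers and 5, 5 and 9 in WT pair-fed livers. Every labelled KO liver exceeded every WT liver. Cox6b2 had too few counts in WT livers for the low-count filter, so it passed only through the labelled KO livers, where it is high. In pair-fed mice it averaged 4.42 ± 0.814 CPM in labelled KO and 0.368 ± 0.137 CPM in WT livers (SD, n = 3 each), a log2 fold change of 3.56 ± 0.36 SE (adjusted p = 2.34e-04, edgeR). In ethanol-fed mice it averaged 1.91 ± 0.644 CPM in labelled KO and 0.143 ± 0.0351 CPM in WT livers, a log2 fold change of 3.68 ± 0.43 SE (adjusted p = 9.61e-04, edgeR). The authors' deposited table lists 3.56 and 3.68 for these comparisons, with FDR values of 1.67e-15 and 6.73e-11.

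Cox6b2 also fell with ethanol in labelled KO mice, to 43.1% (log2 fold change -1.22 ± 0.29, adjusted p = 0.0104, edgeR); in WT mice the estimate was -1.33 ± 0.53 on 2 to 9 counts and did not pass (adjusted p = 0.0690, edgeR). Cox6b1, the form used in most tissues, had 132, 119 and 191 CPM in labelled KO ethanol-fed, 127, 156 and 122 in WT ethanol-fed, 186, 187 and 176 in labelled KO pair-fed and 159, 180 and 169 in WT pair-fed livers, with no call in any comparison. Per kilobase Cox6b1 stood at 314 CPM and Cox6b2 at 2.77. The gene lies at chr7:4751792-4753094 (mm10, minus strand), and none of 9 other tested genes within 150000 bases of it differed between labels in either feeding. Of all genes 0.702% rose and 0.168% fell in pair-fed mice, and 0.756% and 0.374% in ethanol-fed mice. Finding none among 9 therefore does not show that the change is confined to Cox6b2. Cox7a1 and Ndufa4l2, the other tissue-restricted forms, differed by -0.80 ± 0.47 and -0.70 ± 0.37 in pair-fed mice and did not pass.

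**Figure D4:**
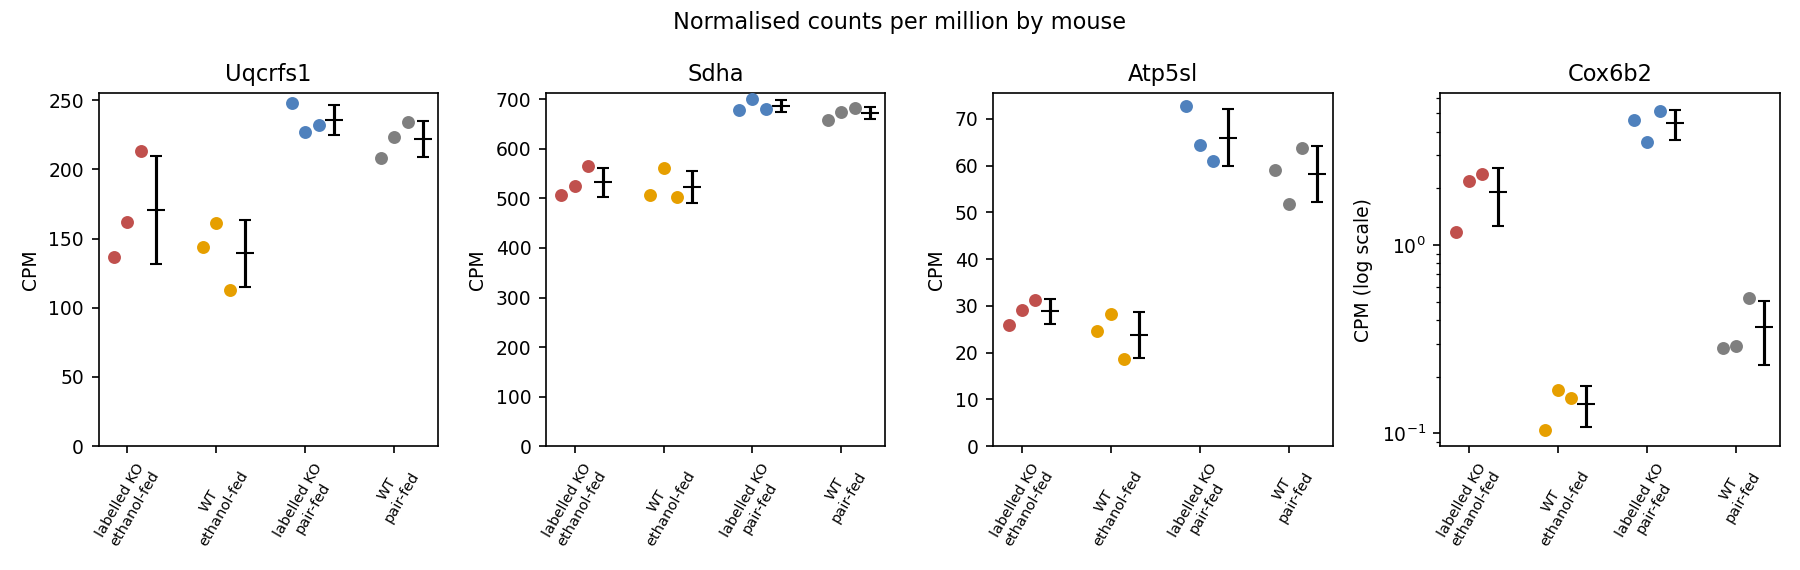
CPM of 4 genes in each of the 12 livers, with the mean and SD of each group of 3 beside its points; axes start at 0 except for Cox6b2, which is on a log axis. Uqcrfs1, Sdha and Atp5sl are lower in ethanol-fed than in pair-fed livers of both labels, the Uqcrfs1 difference in labelled KO mice not passing the test, and Cox6b2 is higher in all 6 labelled KO livers than in any WT liver.

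Other genes of mitochondrial respiration were read from lists beside the members. The name rule does not take 11 listed subunits and electron carriers. Of these, 2 fell with ethanol in WT mice (median -0.29), beside 14.5% of all genes. These were Cyc1, cytochrome c1 of complex III, at 74.4% (log2 fold change -0.43 ± 0.13, adjusted p = 0.0252, edgeR), and Etfa, which hands electrons from fatty acid oxidation to ubiquinone, at 67.6% (adjusted p = 0.00960, edgeR). In labelled KO mice 2 fell (median -0.26), beside 10.9% of all genes. They were Etfa and the proton-translocating transhydrogenase Nnt, whose call rests largely on 2 pair-fed mice described at the end. Cyc1 had 202, 230 and 198 CPM in WT ethanol-fed and 261, 286 and 301 CPM in WT pair-fed livers, without overlap.

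Assembly factors had calls in both directions, to be read beside the 14.5% of all genes that fell and 18.9% that rose in WT mice and the 10.9% and 13.7% in labelled KO mice. Of 14 that build complex I, 3 fell and 1 rose in WT mice (median -0.11), and 1 fell and 1 rose in labelled KO mice (median 0.07). Ecsit, needed for an early membrane-arm intermediate, fell to 66.0% in WT (adjusted p = 0.00241, edgeR) and to 77.8% in labelled KO mice (adjusted p = 0.0404, edgeR), and Acad9, which works with it, fell by 0.55 in WT mice. Of 30 that build complexes II to V, 5 fell and 4 rose in WT mice (median 0.01), and 2 rose in labelled KO mice (median 0.01). Atpaf2, which helps to assemble the head of ATP synthase, fell to 64.3% in WT mice (adjusted p = 0.00373, edgeR), and Coa4, a cytochrome c oxidase assembly factor, rose by 1.08 on the log2 scale (adjusted p = 0.00838, edgeR).

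Regulators of mitochondrial biogenesis also had calls in both directions, beside the same shares of all genes. Of 14, 4 rose and 1 fell in WT mice (median 0.02), and 2 rose and 1 fell in labelled KO mice (median 0.06). Nrf1, which encodes nuclear respiratory factor 1, had 12.5, 17.3 and 29.5 CPM in WT ethanol-fed livers, against 10.8, 11.6 and 9.59 CPM in WT pair-fed livers, and rose by 0.89 ± 0.24 on the log2 scale (adjusted p = 0.0132, edgeR). Gabpb1, the partner subunit of GABP, rose by 1.06 ± 0.19 in WT (adjusted p = 0.00144, edgeR) and by 0.64 ± 0.19 in labelled KO mice (adjusted p = 0.0265, edgeR), while Gabpa, its DNA-binding subunit, had estimates of -0.12 ± 0.13 in WT and 0.02 ± 0.13 in labelled KO mice. Gabpa and Atp5j overlap by 246 exon bases on opposite strands, so the values of both are uncertain. Yy1 fell to 69.3% in WT mice (adjusted p = 0.0133, edgeR). Tfam, which packages and transcribes mitochondrial DNA, fell to 77.6% in labelled KO mice (adjusted p = 0.0323, edgeR). Ppargc1a, the coactivator PGC-1alpha, had 10.6, 24.0 and 8.61 CPM in WT ethanol-fed and 22.9, 26.0 and 21.9 CPM in WT pair-fed livers, which overlapped (-0.71 ± 0.45, adjusted p = 0.247, edgeR).

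Members with and without each promoter core were set side by side for ethanol in WT mice. Median log2 fold changes were -0.40 with and -0.37 without the NRF1 core, -0.44 and -0.36 for the ETS core, -0.40 and -0.36 for the YY1 core, and -0.34 and -0.40 for the SP1 core. Among the 23 genes that fell and had an entry, 13.0% held the NRF1 core and 26.1% the ETS core, against 16.3% and 23.3% of the 43 that did not pass. The YY1 core was held by 26.1% against 14.0%, and the SP1 core by 34.8% against 44.2%. These are descriptions with no test.

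Across the wider mitochondrial lists, medians in WT mice were -0.30 for 12 carriers and porins, -0.14 for 17 genes of the tricarboxylic acid cycle, -0.10 for 76 mitochondrial ribosomal proteins, -0.08 for 12 chaperones and proteases and -0.07 for 16 import genes, each with calls in both directions. Of all genes, 14.5% fell and 18.9% rose, and the 76 ribosomal proteins, with 10 lower and 6 higher, lay below both shares. The 72 common subunits had a median of -0.37 with 27 lower and 0 higher, and the middle 50% of their estimates lay between -0.45 and -0.30.

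**Figure D5:**
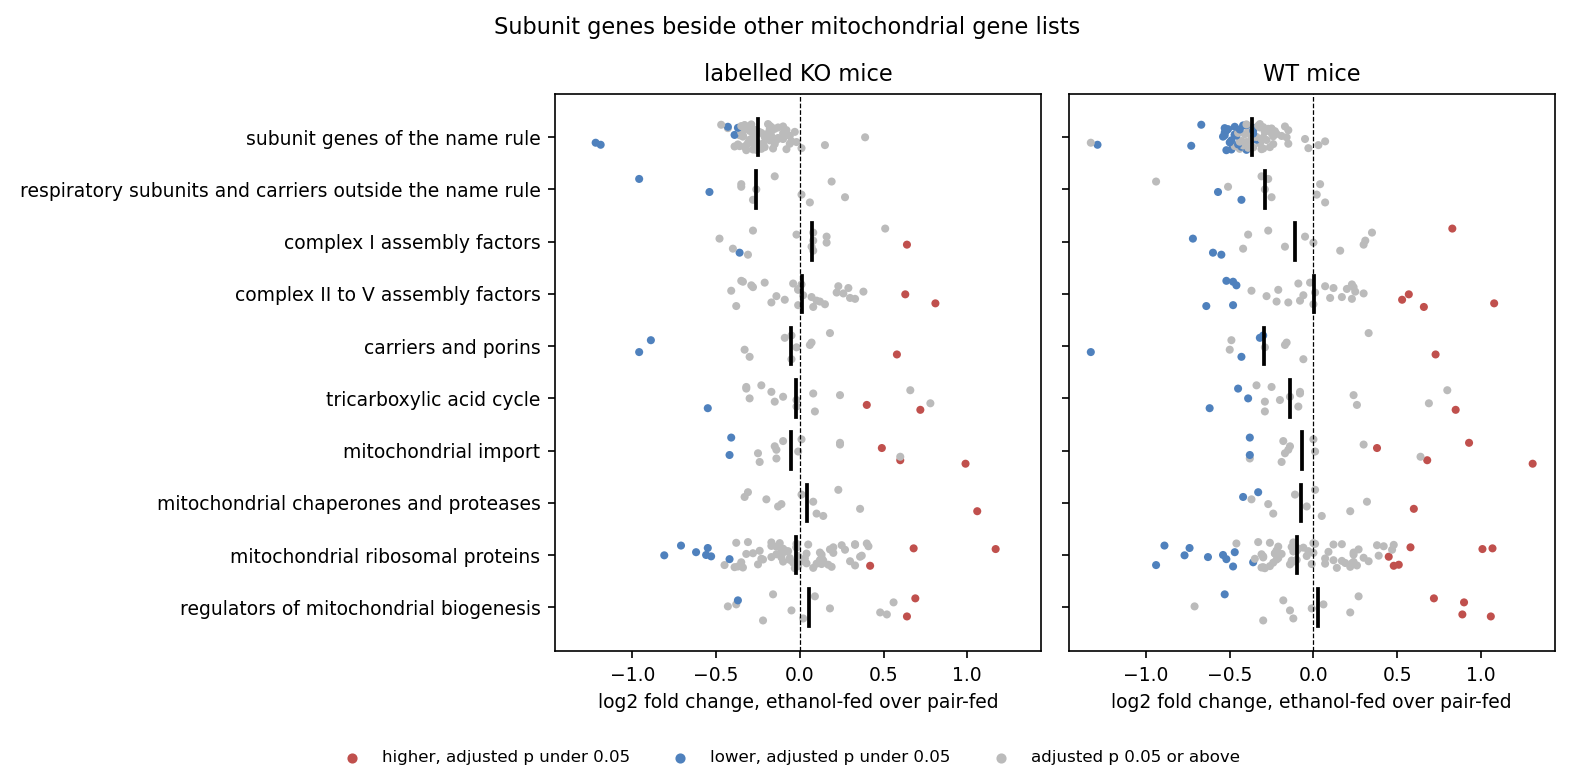
Log2 fold change for ethanol-fed over pair-fed of each gene in 10 sets, in labelled KO mice (left) and WT mice (right); coloured points have an adjusted p under 0.05 (red higher, blue lower) and black bars are medians. The 78 subunit genes have medians of -0.25 and -0.37 with no called rise, while assembly factors, import genes, ribosomal proteins and regulators have called genes on both sides of 0 in WT mice.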

How the data were processed

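Liver RNA of 12 individual mice was sequenced from TruSeq libraries, 1 per mouse. The deposited count table holds whole read counts per gene; the build mm10, edgeR 3.20.8, STAR 2.5 and Subread 1.5.3 (featureCounts) are listed, per the submitters' processing notes. Annotation, strand and handling of multi-mapped reads: not given in the sources used here. Further tables deposited by the authors give log2 fold changes and p-values with FDR, printed here for Cox6b2 alone.

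Counts were fitted in R 4.3.3 with edgeR 4.0.16 (TMM scaling, robust quasi-likelihood fit of 4 groups, 8 residual degrees of freedom). The fit shares its estimate of spread over all groups, although ethanol-fed livers varied more than pair-fed livers. With only the 2 groups compared, labelled KO over WT called 266 genes higher and 215 lower in pair-fed mice, against 92 and 22. In ethanol-fed mice it called 45 and 2, against 99 and 49. Member counts stayed at 1 higher and 0 lower at each feeding. All 13097 genes passed the expression filter. P-values were adjusted by Benjamini-Hochberg over all 13097 genes in each of 5 comparisons. The pipeline was tested on simulated data with larger changes than most members showed, so that test does not speak to changes of their size. Library totals were similar, so depth limits mainly genes with few counts, such as Cox6b2. Alternatives used DESeq2 1.42.0, limma 3.58.1 (voom), other scalings and filters, a replicate block and leaving out each mouse.

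Members and lists were chosen with earlier results of these data known. Genes were named by rule: fixed core subunits, isoform copies, the highest and lowest level in each complex, and up to 4 genes with the smallest p in each complex or list and comparison. Other members that passed are listed because they passed, and promoters were picked after values were seen. A result on 1 member is not reported here, though the counts over all members include it. Each liver is 1 mouse by the series' design text. Same-numbered mice did not vary together, so numbers were not used as pairs.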

Additional observations from a re-analysis of the deposited data

How the results depend on the processing

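In WT mice, where 28 members fell with ethanol, the count was 12 with scaling by total counts and 18 with a replicate block, and 6 to 46 when 1 mouse was left out. In labelled KO mice, where 5 fell, it was 11 by DESeq2, 3 with a replicate block and 2 to 40 with 1 mouse left out. The member median kept its negative sign under every setting, at -0.48 to -0.30 in WT and -0.42 to -0.13 in labelled KO mice over the leave-outs. For labelled KO over WT in ethanol-fed mice it ran from -0.03 to 0.26, and for the interaction from -0.05 to 0.23, the lower ends coming without labelled KO ethanol-fed mouse 3. The cause of these changes was not tested. No call changed direction. Deviations of same-numbered mice correlated at -0.168 to 0.158 over 18 pairs, against -0.242 to 0.353 for other numbers, so the replicate block rests on numbers that did not pair the mice. Cox6b2 differed by 3.41 to 3.91 in pair-fed and 3.46 to 3.94 in ethanol-fed mice over the alternatives. Depth limits Cox6b2 in WT mice, Cox7a1, Ndufa4l2 and Atp5g2, each with few counts.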

Other observations

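Carriers of the inner mitochondrial membrane moved in both directions. Slc25a13, the liver form of the aspartate-glutamate carrier that brings reducing equivalents of cytosolic NADH into mitochondria, had 128, 192 and 213 CPM in labelled KO ethanol-fed livers, against 362, 343 and 329 CPM in labelled KO pair-fed livers. In WT mice it had 196, 172 and 87.5 CPM when ethanol-fed, against 347, 404 and 392 CPM when pair-fed. It fell to 51.5% in labelled KO mice (adjusted p = 0.0161, edgeR) and to 39.9% in WT mice (adjusted p = 0.00210, edgeR). Slc25a12, the form of the same carrier found in muscle and brain, rose to 149% in labelled KO mice (adjusted p = 0.0118, edgeR) and to 166% in WT mice (adjusted p = 0.00231, edgeR). Its levels were 40.0, 40.8 and 42.3 CPM in labelled KO ethanol-fed, 36.6, 48.4 and 35.3 in WT ethanol-fed, 30.3, 28.0 and 24.0 in labelled KO pair-fed and 21.5, 24.9 and 25.9 in WT pair-fed livers, so both forms separated the feedings without overlap.

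Mitochondrial ribosomal proteins had called genes in both directions, at shares below those of all genes. Of 76, 6 rose and 10 fell in WT mice, beside 18.9% and 14.5% of all genes. In labelled KO mice 3 rose and 7 fell, beside 13.7% and 10.9%. Mrps2 rose by 0.68 on the log2 scale in labelled KO mice (adjusted p = 0.00419, edgeR) and by 1.07 in WT mice (adjusted p = 2.20e-04, edgeR). Mrps18b rose by 1.17 in labelled KO mice (adjusted p = 9.54e-04, edgeR) and by 1.01 in WT mice (adjusted p = 0.00136, edgeR). Mrps28 fell by 0.71 in labelled KO mice (adjusted p = 0.0106, edgeR) and by 0.89 in WT mice (adjusted p = 0.00218, edgeR).

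Nnt, which couples the proton gradient to making NADPH, had 69.6, 86.3 and 87.3 CPM in labelled KO ethanol-fed livers, against 189, 191 and 93.0 CPM in labelled KO pair-fed livers, and 62.2, 81.4 and 67.4 CPM in WT ethanol-fed livers, against 71.4, 88.4 and 94.9 CPM in WT pair-fed livers. Labelled KO pair-fed mice 1 and 2 stood above the rest. Nnt was called lower with ethanol in labelled KO mice, at 51.4% (adjusted p = 0.0111, edgeR). That call rests largely on pair-fed mice 1 and 2, since pair-fed mouse 3, at 93.0 CPM, lay close to the ethanol-fed livers. Labelled KO over WT in pair-fed mice did not pass (log2 fold change 0.89 ± 0.23, adjusted p = 0.127, edgeR), nor did the interaction (adjusted p = 0.948, edgeR).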
